A study of Mus musculus with 12 samples.

Results

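The genes described are those of hemoglobin and of the red cell lineage, together with a pair of globins of nervous tissue, in injured mouse spinal cord. The 9 genes are HBA-A1, HBA-A2, HBB-BS, HBB-BT, ALAS2, SLC4A1, BPGM, NGB and CYGB, and every row of the deposited table that carried 1 of these symbols was taken. They were chosen by their measured levels in these same groups, above all the high globin values above the lesion, so their levels and ratios are given as a description, with no test. The table held 13957 gene symbols, in 13647 rows above and 12338 rows below the lesion. Of the 9 genes 8 were listed, each at both sites, and SLC4A1, the anion exchanger of the red cell membrane, was listed at neither site.

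All mice were 4-month-old males carrying human ApoE4 in place of the mouse gene by targeted replacement, and all received a contusion at thoracic level T9 and were studied at day 14. RNA came from segments of cord just above (rostral) or just below (caudal) the lesion, in mice with both copies of synj1 (synj1+/+) or with 1 inactivated copy (synj1+/-), which gave 4 groups of 3 libraries and 12 libraries in all. The study counts 3 mice per genotype for RNA sequencing, so the sites cannot be taken as separate animals. The table gives 1 combined value per gene and group, so no value has an error, no difference can be set against the spread between mice, and neighbours in an order of levels cannot be said to differ beyond it. A difference is called here when it reached at least 2-fold, which is a size and not a test. Per the study's methods, fresh cords were collected after decapitation for biochemical analysis, and perfusion was described for cords that were fixed. The collection of the cords used for RNA sequencing was not stated on its own. Blood left in the segments was not measured separately.

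SYNJ1, the gene that was targeted, had a level of 1904 FPKM (fragments per kilobase of transcript, scaled to the reads of the library) in synj1+/+ above, 2403 in synj1+/- above, 1846 in synj1+/+ below and 2592 in synj1+/- below. It was therefore higher in the groups labelled synj1+/- at both sites, by 0.34 and 0.49 on the log2 scale, which runs against the labels, and every genotype direction below rests on those labels. APOE had 766 and 548 FPKM above and 476 and 563 below. Reads were aligned to the mouse genome while the mice carried the human gene, so the APOE values may not measure its expression. The tissue held the markers of cord: 12 of 13 neuronal, 8 of 8 astrocyte and 4 of 8 oligodendrocyte markers were listed, with SNAP25, named after its values were seen, between 5238 and 6928 FPKM, GFAP between 8484 and 12974 and MOBP, named likewise, between 9723 and 10915. Values above and below the lesion were normalised separately, so levels are compared across sites only side by side, although the median gene differed between sites by less than 0.1 on the log2 scale in both genotypes.

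Adult hemoglobin is built of alpha and beta chains, each holding a heme group. In mice the alpha chain is made from HBA-A1 and HBA-A2 and the beta chain from HBB-BS and HBB-BT. ALAS2 is the erythroid form of the enzyme that starts heme synthesis, and BPGM makes the red cell metabolite that lowers the oxygen affinity of hemoglobin. Red cells of mammals have lost their nucleus, but the youngest in blood, the reticulocytes, still carry globin mRNA. Neuroglobin (NGB) is found in neurons and cytoglobin (CYGB) in fibroblast-like cells and in some neurons.

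In the GRCm38 annotation the alpha genes lie on chromosome 11, HBA-A1 from 32283511 to 32284465 and HBA-A2 from 32296489 to 32297298, with 12.0 kb between them. The beta genes lie on chromosome 7 on the minus strand, HBB-BT from 103812524 to 103813996 and HBB-BS from 103826534 to 103828096, with 12.5 kb between them. ALAS2 spans 150547375 to 150570638 of chromosome X, BPGM 34476207 to 34505613 of chromosome 6, NGB 87097531 to 87102539 of chromosome 12 and CYGB 116645595 to 116654313 of chromosome 11. The 4 globin genes and ALAS2, which moved together here, thus sit on 3 chromosomes. The 250 bases before the start of 4 of them are shown because they let the shared letters of these separately located genes be seen; sequences are from RefSeq on GRCm38.p6, read 5′ to 3′ along the gene's strand. The starts are those of RefSeq, whereas the spans above are the outer bounds in GENCODE, so a window can reach into a span. Capitals mark matches on either strand to GATA (the letters GATAA or GATAG behind an A or a T), to CACCC, to CCAAT and to TATA (TATAA), the motifs long known from globin promoters.
HBA-A1, chr11:32283422-32283671, plus strand: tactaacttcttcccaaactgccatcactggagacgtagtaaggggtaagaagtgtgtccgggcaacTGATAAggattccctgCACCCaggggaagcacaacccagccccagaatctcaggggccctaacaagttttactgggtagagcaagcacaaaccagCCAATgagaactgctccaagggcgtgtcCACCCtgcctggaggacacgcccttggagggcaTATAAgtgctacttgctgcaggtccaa
HBB-BS, chr7:103827929-103828178, minus strand: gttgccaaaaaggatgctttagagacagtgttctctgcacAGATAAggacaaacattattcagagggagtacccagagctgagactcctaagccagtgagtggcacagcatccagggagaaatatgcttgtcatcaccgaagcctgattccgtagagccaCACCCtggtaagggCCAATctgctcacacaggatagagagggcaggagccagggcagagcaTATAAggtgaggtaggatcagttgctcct
HBB-BT, chr7:103813924-103814173, minus strand: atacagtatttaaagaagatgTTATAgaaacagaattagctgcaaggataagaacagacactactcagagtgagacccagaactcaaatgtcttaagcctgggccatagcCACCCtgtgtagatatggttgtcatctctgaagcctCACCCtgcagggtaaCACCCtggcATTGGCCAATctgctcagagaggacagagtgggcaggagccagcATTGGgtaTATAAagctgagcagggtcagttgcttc
ALAS2, chrX:150547167-150547416, plus strand: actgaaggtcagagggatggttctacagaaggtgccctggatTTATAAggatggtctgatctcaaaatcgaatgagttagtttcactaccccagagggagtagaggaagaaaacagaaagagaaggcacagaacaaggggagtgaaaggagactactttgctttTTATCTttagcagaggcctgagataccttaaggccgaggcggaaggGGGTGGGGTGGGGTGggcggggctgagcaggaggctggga

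HBA-A2 is not printed because its window shares an unbroken run of 247 of 250 bases with that of HBA-A1. Both alpha genes held all 4 motifs, in HBA-A1 a GATA word starting 183 bases before the start, CACCC at 167 and 60, CCAAT at 88 and TATA at 27. HBB-BS also held all 4, with GATA at 210, CACCC at 90, CCAAT at 76 and TATA at 29, whereas HBB-BT held 3 CACCC, 3 CCAAT and 2 TATA matches and no GATA word. The beta windows shared no identical run longer than 14 bases. ALAS2 held a GATA word at 86 and 3 CACCC words in a row from 40 to 26, all read on the opposite strand, and overlapping TATA matches at 208 and 207. The window of BPGM, the only other of the 9 genes for which a window was read, held 3 CCAAT matches and none of the other motifs. Of 32851 windows of the same length in the genome, 26.5% held GATA, 52.0% CACCC, 33.8% CCAAT, 22.8% TATA and 1.08% all 4. A match describes these letters and is no measure of binding.

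**Figure D1:**
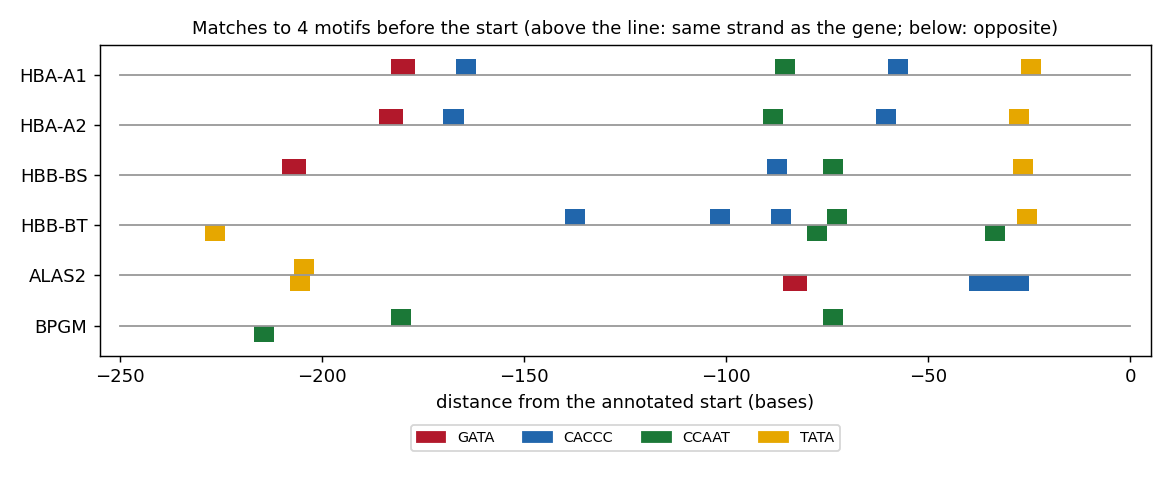
Matches to the 4 motifs in the 250 bases before the annotated start of 6 genes; the horizontal axis is the distance from the start in bases, boxes above each line lie on the gene's strand and boxes below on the opposite strand. HBA-A1, HBA-A2 and HBB-BS hold all 4 motifs, HBB-BT and ALAS2 hold 3 of them and BPGM holds CCAAT alone.

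The level of the alpha gene HBA-A1 was 103 FPKM in synj1+/+ above, 468 in synj1+/- above, 255 in synj1+/+ below and 329 in synj1+/- below. HBA-A2 had 95.4, 418, 234 and 324 FPKM in the same order. For both genes synj1+/+ above was by far the lowest and synj1+/- above the highest. HBA-A1 was higher than 75.6% of all genes in the lowest group and than 95.0% in the highest.

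The beta gene HBB-BS had 31.2 FPKM in synj1+/+ above, 152 in synj1+/- above, 89.2 in synj1+/+ below and 107 in synj1+/- below. HBB-BT had 16.5, 83.3, 46.8 and 57.1 FPKM in that order. The beta genes thus ordered the groups as the alpha genes did, at lower levels per length. The coding sequences of HBA-A1 and HBA-A2 differ at 1 of 429 bases and those of HBB-BS and HBB-BT at 1 of 444, so reads are shared within each pair and the split between the members of a pair is uncertain. An alpha and a beta gene are identical at 55.2% to 55.4% of aligned positions.

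ALAS2 was low throughout, with 2.25 FPKM in synj1+/+ above, 10.8 in synj1+/- above, 4.15 in synj1+/+ below and 7.09 in synj1+/- below. It exceeded 3.53% of all genes in the lowest group and 23.0% in the highest, yet it ordered the groups exactly as the globins did. In tissue RNA a difference in the number of red cells and a difference in RNA per red cell cannot be told apart.

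The other 3 genes did not have this pattern. BPGM had 350 FPKM in synj1+/+ above, 364 in synj1+/- above, 348 in synj1+/+ below and 320 in synj1+/- below, and in synj1+/+ above it exceeded every globin gene. NGB had 10.9, 11.4, 8.51 and 10.7 FPKM and CYGB had 78.4, 83.2, 83.7 and 95.2 FPKM in the same order. The range over the 4 groups was 0.18 for BPGM, 0.38 for NGB and 0.28 for CYGB on the log2 scale (FPKM plus 1), where the median gene had 0.27. For the 4 globin genes it was 2.12 to 2.27 and for ALAS2 1.86, which ranked 34 to 43 and 61 among 12023 genes listed at both sites.

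**Figure D2:**
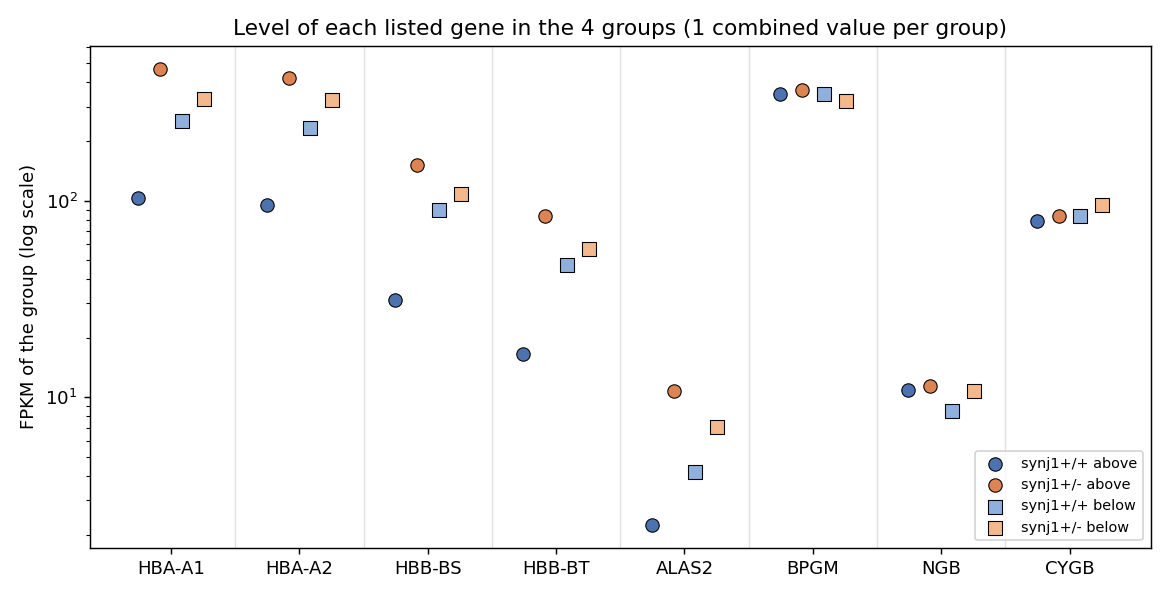
FPKM of each of the 8 listed genes (logarithmic vertical axis) in the 4 groups, circles above and squares below the lesion, 1 combined value per group. The 4 globin genes and ALAS2 are lowest in synj1+/+ above and highest in synj1+/- above, while BPGM stays between 320 and 364 FPKM, NGB between 8.51 and 11.4 and CYGB between 78.4 and 95.2.

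The genotype comparison above the lesion asks how the loss of 1 synj1 copy relates to expression on the rostral side of the injury. There the FPKM of HBA-A1, HBA-A2, HBB-BS, HBB-BT and ALAS2 among mice labelled synj1+/- was 4.54, 4.38, 4.88, 5.04 and 4.79 times that of the mice labelled synj1+/+. On the log2 scale of FPKM plus 1, used for all log2 ratios below, the globins differed by 2.17, 2.12, 2.25 and 2.27 and ALAS2 by 1.86. With the labels as given, among 13642 genes compared, HBB-BT, HBB-BS, HBA-A1 and HBA-A2 ranked 2 to 5 from the highest ratio and ALAS2 ranked 7. BPGM, NGB and CYGB differed by 0.06, 0.06 and 0.08.

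Above the lesion 5 of the 8 listed genes were at least 2-fold higher under the synj1+/- label, where 0.132% of all genes (18 of 13642) were; since the genes were chosen by this contrast, nothing is read from that count. None was at least 2-fold lower, as 0.55% of all genes were. The genes ranked next to them were LOC100861978 at the top, with a log2 ratio of 4.41, and TMEM190 at rank 6, with 1.89; both were named after their values were seen. The gap between the members inside the 2-fold limit and those outside was wide, from 1.86 for ALAS2 to 0.08 for CYGB.

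Below the lesion the same genes differed less between genotypes. The FPKM ratio of synj1+/- over synj1+/+ was 1.29 for HBA-A1, 1.38 for HBA-A2, 1.21 for HBB-BS, 1.22 for HBB-BT and 1.71 for ALAS2. The log2 ratios were 0.37, 0.47, 0.27 and 0.28 for the globins and 0.65 for ALAS2, and -0.12, 0.30 and 0.18 for BPGM, NGB and CYGB. None of the 8 genes was at least 2-fold higher, where 0.162% of 12335 genes were, and none was at least 2-fold lower, where 1.31% were. HBA-A2 and ALAS2 still exceeded 97.3% and 99.2% of all genes, and HBB-BS and HBB-BT 87.8% and 88.8%. All 5 erythroid genes were therefore higher in the group labelled synj1+/- at both sites, with a larger ratio above the lesion in each of the 5. The choice of the genes by their high values above the lesion favours a larger ratio there, so nothing is read from it. The difference between the sites was not tested, since no values of single libraries were used.

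**Figure D3:**
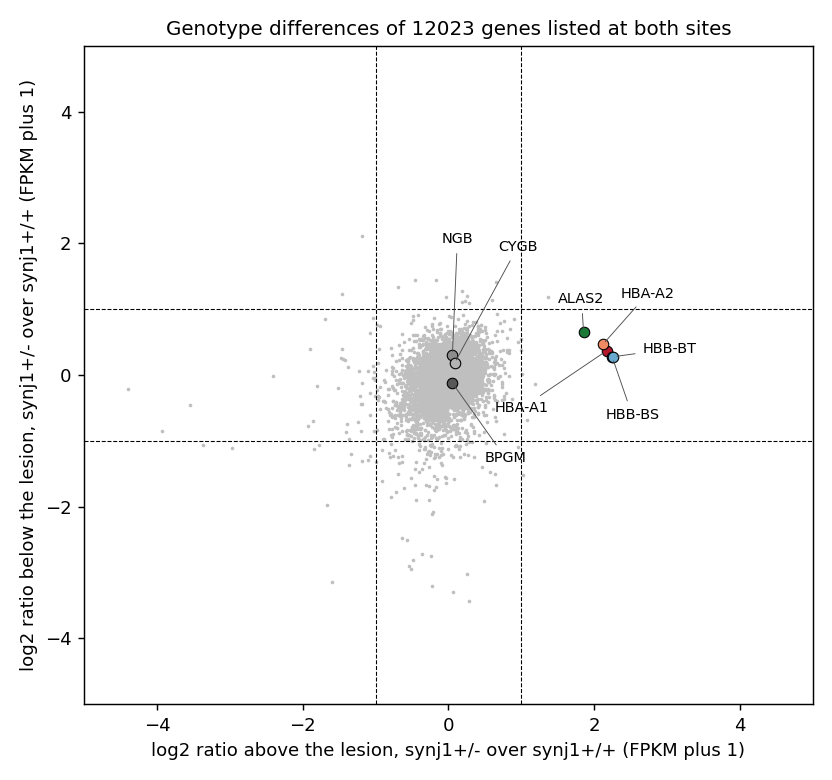
Genotype log2 ratio (synj1+/- over synj1+/+, FPKM plus 1) above the lesion on the horizontal axis and below the lesion on the vertical axis for 12023 genes listed at both sites (grey), with the 8 members marked and dashed lines at 2-fold. The 4 globin genes and ALAS2, chosen for their levels in these groups, lie apart to the right at 1.86 to 2.27, with 0.27 to 0.65 on the vertical axis. BPGM, NGB and CYGB lie within the cloud.

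Set side by side across the sites, in the group labelled synj1+/+ the globins were higher below than above the lesion, by log2 ratios of 1.30 for HBA-A1, 1.29 for HBA-A2, 1.49 for HBB-BS and 1.45 for HBB-BT. ALAS2 differed by 0.67, BPGM by -0.01, NGB by -0.32 and CYGB by 0.09. The 4 globin genes were at least 2-fold higher, where 0.99% of 12023 genes were, and none of the 8 was at least 2-fold lower, where 0.183% were. This contrast shares the low synj1+/+ group above the lesion with the genotype contrast there.

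In the group labelled synj1+/- the order of the sites was the opposite. The globins were lower below than above by log2 ratios of -0.51, -0.37, -0.50 and -0.54 and ALAS2 by -0.54, and 0.99% to 3.27% of genes had a lower ratio. The genes were chosen by their high values above the lesion, which favours a low ratio here, so nothing is read from that share. BPGM, NGB and CYGB had log2 ratios of -0.18, -0.08 and 0.19. None of the 8 was at least 2-fold lower, where 0.116% of genes were, or higher, where 0.316% were.

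The 5 erythroid genes shared 1 order of the groups, with synj1+/+ above lowest, then synj1+/+ below, synj1+/- below and synj1+/- above. Of 12023 genes, 369 (3.07%) had this order. Relative to synj1+/+ above, the globins stood at 2.45 to 2.86 times in synj1+/+ below, 3.20 to 3.45 times in synj1+/- below and 4.38 to 5.04 times in synj1+/- above. ALAS2 stood at 1.85, 3.16 and 4.79 times, so it was below the globins in synj1+/+ below.

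**Figure D4:**
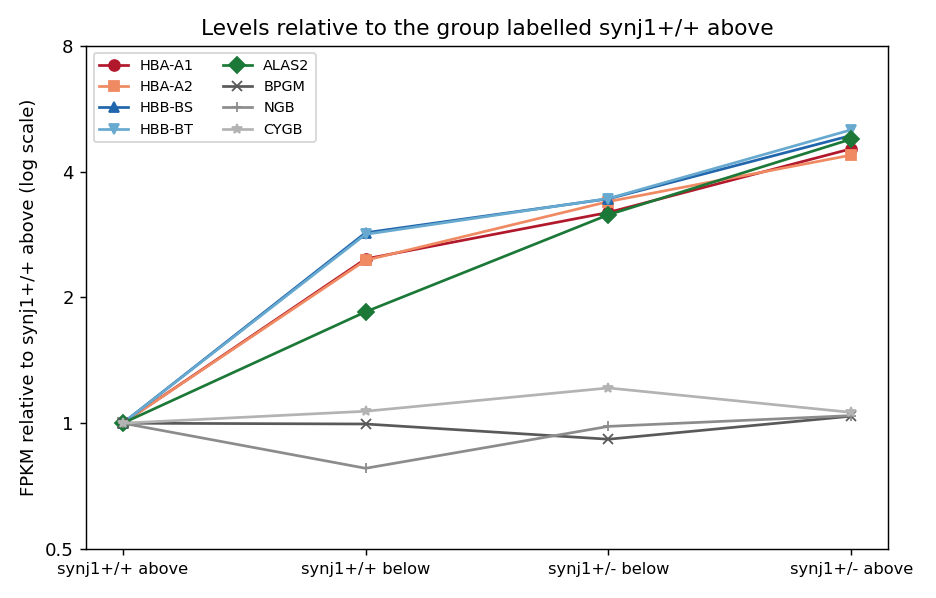
FPKM of each listed gene divided by its FPKM in the group labelled synj1+/+ above (logarithmic vertical axis), with the 4 groups ordered by globin level along the horizontal axis; lines join the values of 1 gene and stand for no course in time. The globins climb from 1 to between 4.38 and 5.04 with ALAS2 alongside, and BPGM, NGB and CYGB stay between 0.78 and 1.21.

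Within a group the balance of the chains does not depend on the scaling between groups. The summed FPKM of the 4 globins was 246 in synj1+/+ above, 1122 in synj1+/- above, 625 in synj1+/+ below and 818 in synj1+/- below. While this sum spanned 4.56 times, the ratio of alpha to beta chain FPKM was 4.16, 3.76, 3.60 and 3.97 in those groups. HBA-A1 over HBA-A2 was 1.08, 1.12, 1.09 and 1.02, and HBB-BS over HBB-BT was 1.89, 1.83, 1.90 and 1.88. ALAS2 amounted to 0.913%, 0.960%, 0.665% and 0.868% of the globin sum. The alpha chain, the beta chain and ALAS2 transcripts thus moved nearly in proportion, the share of ALAS2 in synj1+/+ below being the lowest. The ratios within a pair add little to this, since its members share reads. Of a list of 9 other globin genes, which held embryonic, adult and minor globins and myoglobin, none was listed at either site.

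The genes of red cell biology beyond the members were described from lists. In each direction only 0.116% to 1.31% of all genes were past 2-fold in the 4 comparisons. A short list with no gene past 2-fold, here and in the lists that follow, is therefore usual, and nothing is read from it. Of 12 genes of heme synthesis besides ALAS2, all were listed and none differed by 2-fold in any of the 4 comparisons; their median log2 ratio was 0.01 above and -0.00 below, where all genes had -0.00 and 0.01. ALAD, the second enzyme of the pathway, had the largest difference above the lesion, -0.27. The rest of the heme pathway, which other cells use as well, thus lay near 0 where ALAS2 did not.

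Of 10 erythroid regulators, 5 were listed, and GATA1, KLF1, NFE2, GFI1B and AHSP were not. EPOR, the erythropoietin receptor, had 4.78 FPKM in synj1+/+ above, 7.83 in synj1+/- above, 5.47 in synj1+/+ below and 5.57 in synj1+/- below. EPOR thus had the group order of the globins, as 3.07% of all genes had, with nearly equal values below the lesion. Its log2 ratio between genotypes was 0.61 above and 0.02 below, and BCL11A, a repressor of embryonic globin genes that is also made in neurons, had 0.25 and 0.41. Neither reached 2-fold, and the median of the list was 0.08 above and 0.14 below.

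Of 16 red cell membrane genes, 9 were listed, and EPB42, RHAG, RHD, KEL and ERMAP were among those that were not. The 7 compared above the lesion lay between -0.14 and 0.22, 3 of them above 0 (median -0.01), and of 8 below the lesion 5 were above 0 (median 0.14). GYPC, a glycophorin listed only below the lesion, was the 1 gene of the list past 2-fold, at 6.10 FPKM in synj1+/+ and 2.49 in synj1+/- (log2 ratio -1.02). In that comparison 1.31% of all genes were at least 2-fold lower. Of 16 transcripts held by reticulocytes, 13 were listed and none reached 2-fold, with 8 of 13 above 0 above the lesion (median 0.04) and 5 of 10 below it (median -0.02). TENT5C had -0.56 above and -0.56 below and TFRC, the transferrin receptor, 0.29 and 0.01. Of 12 red cell enzymes, BPGM among them, 10 were listed and none reached 2-fold, with 6 of 10 above 0 above the lesion (median 0.01) and 4 of 9 below it (median -0.04). GPX1 had -0.20 and -0.32 and BLVRB -0.18 and -0.53. Above the lesion, values at least 2-fold higher under the synj1+/- label were seen in the globins and ALAS2, which were chosen for such values, and not in these lists. The cord itself expresses many genes of these lists, while SLC4A1, a defining membrane gene, was not listed.

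Between genotypes the genes that take up and break down hemoglobin did not follow the globins. Of 12, 10 were listed and none reached 2-fold, but 8 of 9 compared had log2 ratios under 0 above the lesion (median -0.13) and 8 of 9 below it (median -0.46). HMOX1, the inducible heme oxygenase, had 21.1 FPKM in synj1+/+ above, 12.5 in synj1+/- above, 25.9 in synj1+/+ below and 18.6 in synj1+/- below, with log2 ratios of -0.71 and -0.46. SLC11A1, an iron transporter of phagocytes, had -0.42 and -0.71. Above the lesion, where globin FPKM was higher in the group labelled synj1+/-, HMOX1 was lower in it. Markers of microglia and macrophages, which make several of these genes, were lower as well, with 8 of 9 under 0 above the lesion (median -0.41) and 8 of 8 below it (median -0.52); their part in the clearance genes was not tested. Between the sites, 6 of 8 clearance genes had ratios above 0 in synj1+/+ (median 0.34), the direction of the globins there, and 6 of 8 in synj1+/- (median 0.25), the opposite of the globins.

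Markers of other blood cells, vessels and connective tissue are given beside the globins since a segment of injured cord also holds blood, vessel and scar cells. None of 15 lymphocyte markers was listed. Of 14 neutrophil markers 6 were listed, and above the lesion none of 5 reached 2-fold between genotypes (median 0.12) and 4 of 5 had ratios above 0. Below, S100A8 was at least 2-fold lower in synj1+/- (-1.07) and LCN2 at least 2-fold higher (1.12), where 1.31% and 0.162% of all genes were. The summed FPKM was 381 and 297 above and 509 and 391 below in synj1+/+ and synj1+/-, but CSF3R, a receptor also made by microglia, held most of it. Without CSF3R, a choice made after seeing the values, the sums turned to 13.5 and 15.9 above and 50.8 and 66.0 below, higher in synj1+/- at both sites. Below, only LCN2 was higher in synj1+/-, at 45.4 FPKM against 20.3 in synj1+/+, so the direction of that sum rested on LCN2. There 5 of 6 neutrophil markers had ratios under 0 (median -0.40). Of 10 platelet markers 4 were listed and none reached 2-fold, with sums of 13.7, 12.7, 20.5 and 16.5 in synj1+/+ above, synj1+/- above, synj1+/+ below and synj1+/- below; PF4, a platelet chemokine, had genotype log2 ratios of -0.73 and -0.80, and ITGA2B, an integrin chain, 0.42 and -0.45.

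All 12 endothelial markers were listed and none reached 2-fold, with 9 of 12 above 0 and a median of 0.10 above the lesion and 3 of 12 and -0.14 below between genotypes. Their sums were 683, 642, 845 and 731 FPKM in the order used for platelets, and without LY6C1, the most abundant, 288, 303, 380 and 355, so above the lesion the direction of the sum rested on that gene. KDR, a receptor for vascular growth factor, had 0.54 and 0.13, and VWF -0.27 and -0.19. Of 10 pericyte and smooth muscle markers 8 were listed and none reached 2-fold; their median was 0.13 above and -0.16 below, with ACTA2 at 0.48 and -0.39 and RGS5 at 0.28 and -0.16. The sums of this list were 157, 170, 197 and 179.

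Fibroblast markers moved apart from the globins between genotypes. Of 10, 9 were listed; above the lesion COL3A1 was at least 2-fold lower in the group labelled synj1+/- (-1.60), where 0.55% of all genes were, with a list median of -0.50. Below it 8 of 9 were, COL1A1, COL1A2, COL3A1, DCN, LUM, FBLN1, ASPN and POSTN, where 1.31% of all genes were, with a median of -2.71. Their sums were 108, 86.9, 522 and 119 in synj1+/+ above, synj1+/- above, synj1+/+ below and synj1+/- below.

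Between the sites in the group labelled synj1+/+, where the globins were higher below the lesion, these lists were higher there too. Of the neutrophil markers 4 of 5 were at least 2-fold higher below (S100A8 1.61, S100A9 1.93, LCN2 1.72 and MMP9 1.32), as were 7 of 8 fibroblast markers (median 3.05) and 0.99% of all genes, and 12 of 12 endothelial markers had ratios above 0 (median 0.38). In the group labelled synj1+/-, where the globins were lower below, neutrophil markers were still higher below (2 of 5 at least 2-fold, S100A9 at 1.47 and LCN2 at 2.61), fibroblast markers too (3 of 8), where 0.316% of all genes were, and 11 of 12 endothelial markers had ratios above 0 (median 0.15). The sign of the site difference in globins thus followed these lists in synj1+/+ and not in synj1+/-; their part in the globin values was not tested.

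Hypoxia targets and the cells of the cord gave no 2-fold difference. For 12 of 13 hypoxia targets listed the median genotype log2 ratio was -0.09 above and 0.01 below, with PFKFB3 at -0.29 and VEGFA at 0.26 above the lesion. Neuronal markers had medians of 0.07 and 0.21, with CHAT at -0.35 and 0.22 and RBFOX3 at 0.26 above. Astrocyte markers had -0.21 and -0.17, with GFAP at -0.29 and -0.39 and AQP4 at -0.29 and -0.40. Oligodendrocyte markers had -0.12 and 0.02, with CLDN11 at -0.24 and -0.13 and OPALIN at 0.23 and 0.14. Microglia and macrophage markers, all 10 listed, had -0.41 and -0.52, with C1QA at -0.59 and -0.64 and C1QB at -0.59 and -0.68. None of these medians approached the globin ratio above the lesion, but the globins were chosen by that contrast, so nothing is read from this.

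**Figure D5:**
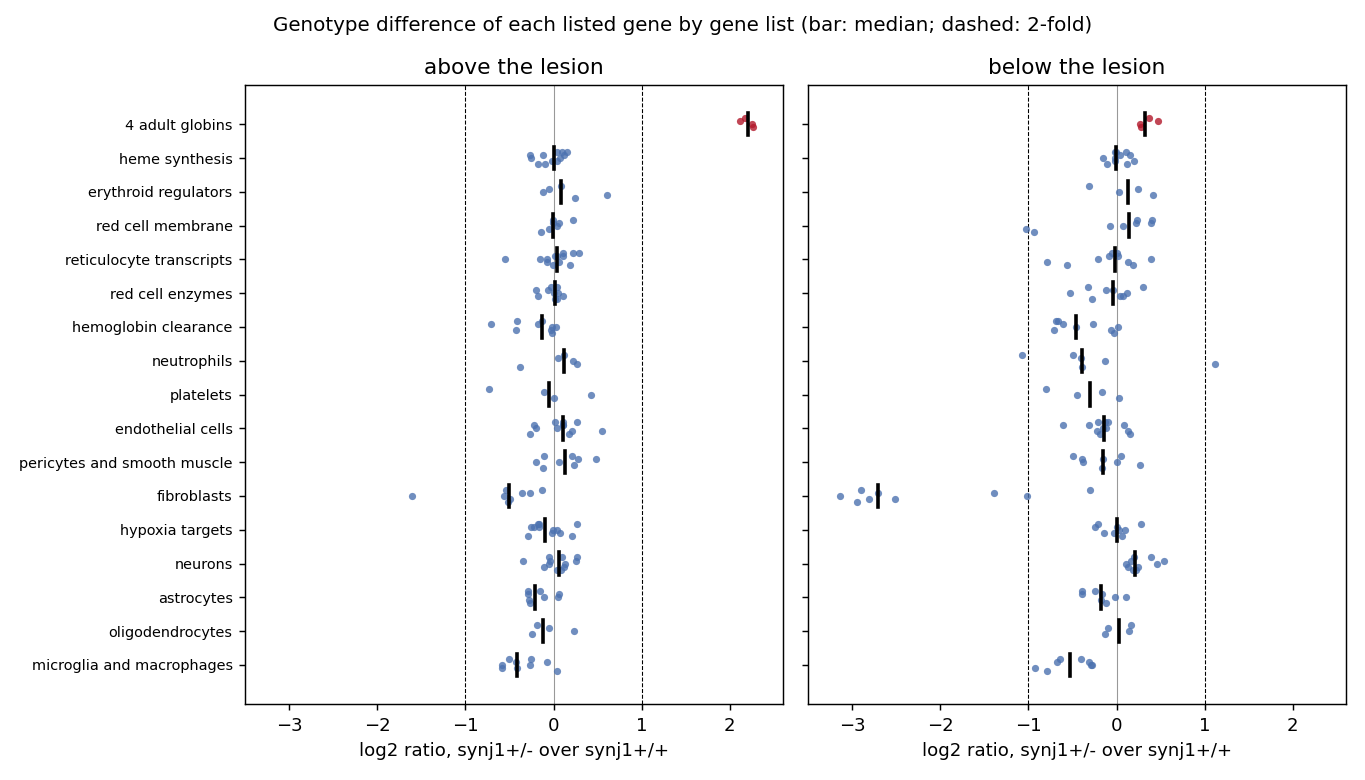
Genotype log2 ratio (synj1+/- over synj1+/+, FPKM plus 1) of each listed gene above (left) and below (right) the lesion, by gene list, with a bar at each median, dashed lines at 2-fold and the 4 adult globins at the top in red. The globins, chosen for their levels in these groups, lie at 2.12 to 2.27 above the lesion, apart from every list. Fibroblast markers have the lowest median below, -2.71.

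The genes most like the globins over the 4 groups were found by the distance between log2 values centred on each gene's own mean, over 9996 other genes with a highest deposited value of at least 10. ALAS2 was the nearest at a distance of 0.51, as a description only, since it is a member chosen on these values and reached that level only in synj1+/- above, where it is highest. By the same measure the globins themselves lay 0.06 to 0.10 from their common mean. Next came IFI27L2A, an interferon-induced gene, at 0.87, ARHGEF33 at 0.90, NOTUM, a secreted Wnt antagonist, at 0.91, CTXN3 at 0.99, HES5, a Notch target, at 1.03, SLC16A13 at 1.07, the kainate receptor subunit GRIK1 at 1.08, NCMAP at 1.08 and GM19412 at 1.09. ARHGEF33 had 15.1 FPKM in synj1+/+ above, 40.7 in synj1+/- above, 28.8 in synj1+/+ below and 66.5 in synj1+/- below, so its highest group was another than that of the globins. ALAS2 lay farther from the common mean than any globin did. That mean is made of the globins themselves, and the members of each pair share reads, so their closeness to it is no finding. CYGB ranked 1629, BPGM 4918 and NGB 5114.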

How the data were processed

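RNA of 12 spinal cord libraries (4 groups of 3, groups taken from the labels) was sequenced. Per the labels and methods, the authors aligned reads with STAR 2.5.4b to GRCm38.p6, took equal numbers of reads per library within each site, and ran Cuffdiff 1.3.0 with upper quartile normalisation. The deposited table holds 1 FPKM value per gene, site and genotype. The lowest value was exactly 1, and of 1031 values between 10 and 11 83.9% kept 5 or more decimals, against 50.3% of 946 between 11 and 12, so the values were read as FPKM plus 1 by the authors. Levels are given with the 1 taken away and log2 ratios from the values as deposited. It holds no library's own values, so depth is unknown from the table and no error, interval or test was computed. The authors' p-values and fold changes, and a shorter list holding them, were not used.

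Symbols with several rows (3) were left out. Ratios, ranks and medians were computed with Python 3.11.15, pandas 2.3.3 and numpy 2.4.6. Only the ratios and the count past the fold were checked on simulated data. That check covered the genotype comparison above the lesion, with known ratios and no noise. Ranks and medians were not checked in this way. A gene counted as called at a log2 ratio of at least 1 in size, and the share of all genes so called is given beside counts of called genes. Positions and coding sequences are from GENCODE M21, promoter windows from RefSeq; 6 of the 9 genes had a window. Besides the 9 genes, SYNJ1 and APOE, genes were named from each list where they reached 2-fold in any comparison, or else the pair with the largest ratio above the lesion, plus the 10 most like the globins; a gene that this rule names is not reported here, and 4 others (SNAP25, MOBP, LOC100861978, TMEM190) were named after their values were seen. Members and lists were chosen with earlier results of these data known. Alternatives were another offset, a filter on low values, centring on the median, folds of 1.5 and 3, rescaling of the sites, and correlation in place of distance. Marker sums without a list's most abundant gene were added after seeing the data.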

Additional observations from a re-analysis of the deposited data

How the results depend on the processing

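All 112 recomputed log2 ratios of the 8 listed genes kept their direction and their side of 2-fold. The settings were the offset taken away, 5 added, centring on the median gene and rescaling of the sites by the 75th percentile. With the offset taken away or 5 added, direction could not change, since both values moved by the same amount. Adding 5 also draws every ratio towards 0, and the median used for centring was only -0.004 to 0.02. Little is therefore read from that count. The number of the 8 listed genes past the fold changed in 2 places, both with the fold itself. At 1.5-fold, 1 gene, ALAS2, was higher below the lesion under the synj1+/- label, where none was at 2-fold, and at 3-fold 0 genes were higher below than above the lesion in synj1+/+, where 4 were at 2-fold. The log2 ratio of ALAS2, 1.86 above the lesion, was 1.02 with 5 added, just past 2-fold, and 2.26 without the offset; below the lesion it was 0.65, 0.37 and 0.77. Counts over all genes depended on these settings: above the lesion the 18 genes at least 2-fold higher became 39 with the offset taken away, 7 with 5 added, 9 among genes of at least 10, 108 at 1.5-fold and 7 at 3-fold. The 75 lower genes ranged from 24 to 263, and below the lesion the 20 higher from 3 to 143 and the 161 lower from 47 to 539. Between sites the 119 higher and 22 lower genes in synj1+/+ ranged from 42 to 390 and from 8 to 163, and the 38 and 14 in synj1+/- from 9 to 172 and from 0 to 100. By Pearson correlation, which was run over 266 genes with a log2 range of at least 1 and not over 9996, 5 of the 10 genes most like the globins were shared, with ALAS2 again at rank 1. No paired analysis was possible because each group has 1 combined value, and no library could be left out for the same reason.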
